A study of Rattus norvegicus with 65 samples.

Results

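The immediate early genes described here are Fos, Fosb, Junb, Egr1, Egr2, Arc, Npas4, Nr4a1, Ier2 and Dusp1, chosen by name and found as 10 rows among the 38513 genes of the count table. All 10 were among the 21871 genes with enough counts to be tested. They were measured in the hypothalamus of 65 male Wistar rats, 1 RNA-seq library per animal. The rats were 9 to 10 weeks old at the start, and the methods describe 6 weeks of high-fat diet before the intervention for all of them. RYGB-treated animals (n = 14) underwent Roux-en-Y gastric bypass and sham-treated animals (n = 11) the control operation. BWM animals (n = 7) were sham-operated and kept on restricted food to reach the body weight of RYGB-treated animals, while the other treated and control groups chose freely between high-fat and low-fat diet after the intervention. PYY3-36-treated animals (n = 4) received this gut hormone from an osmotic minipump (0.1 mg/kg/day) and injections of saline, and liraglutide-treated animals (n = 5) daily injections of this stable GLP-1 analogue (0.4 mg/kg/day) and a minipump with saline. The PYY3-36 + liraglutide group (n = 10) received both agents and the saline group (n = 8) saline by both routes. The labels call 6 further animals lean without describing them, and they were taken to be a group that the study kept on low-fat diet only. All groups shared the tissue collection 4 weeks after the intervention, after 10 h of fasting and in deep anesthesia, and a mixed meal for plasma samples is described shortly before it. Batches A (37 animals) and B (28 animals) were 2 experimental periods: BWM and lean animals were all in A, PYY3-36-treated and liraglutide-treated animals all in B, and the other 4 groups in both.

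Immediate early genes are transcribed within minutes of a stimulus, without the need for new protein, by transcription factors that already wait on their promoters. In neurons, calcium entry and cyclic AMP activate CREB, which binds the cyclic AMP response element (CRE), and growth factor signaling activates the serum response factor SRF, which binds the CArG box. The transcripts decay again within hours, so that their level is widely used as a record of recent activity, for instance of hypothalamic neurons that respond to fasting, feeding or stress. Some members are restricted mainly to neurons, while others also respond in glia and in blood vessels.

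Fos, Fosb and Junb encode parts of the AP-1 transcription factor, in which a Fos protein pairs with a Jun protein. Egr1 and Egr2 encode zinc finger factors, Nr4a1 an orphan nuclear receptor and Npas4 a transcription factor that responds to calcium entry mainly in neurons. Arc encodes a protein of dendrites and synapses that takes part in the removal of AMPA receptors. Ier2 encodes a nuclear regulator of transcription, and Dusp1 the phosphatase that inactivates MAP kinases and so limits the response. In the build of the counts, Rnor_6.0, the genes Fos (6:109300433-109303299), Fosb (1:80214691-80221417), Junb (19:26092972-26094756), Egr1 (18:27657903-27660101) and Egr2 (20:22452170-22461018) were annotated, together with Arc (7:115907097-115911059), Npas4 (1:220260310-220278177), Nr4a1 (7:142899358-142920216), Ier2 (19:25774146-25775670) and Dusp1 (10:16970642-16973425). Counts were taken over the exons of each gene, with a combined length from 1525 bases in Ier2 to 7055 bases in Egr2.

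Promoter sequences were available from RefSeq for 8 of the 10 members, and 4 are shown. Ier2 and Dusp1 hold the full CRE, and Egr2 holds a CArG box beside a shorter form of the CRE. Nr4a1 holds the most copies of the shorter form in the longer window that was searched, which is given below. The copies of Nr4a1 at -246 to -242 and at -226 to -222 from the start of the gene lie before the shown part. Egr1 and Junb, which also hold such motifs, are not shown. The 4 sequences are given 5′ to 3′ from 200 bases before to 10 bases after the start of the gene in the build GRCr8. Its coordinates differ from those of Rnor_6.0. Of the 4 genes, only Ier2 is on another strand, minus in Rnor_6.0 and plus in GRCr8. Capitals mark a CRE (TGACGTCA), its shorter form (TGACG, which reads CGTCA on the other strand) or a CArG box.
Ier2 (chr19:40399173-40399382, plus strand): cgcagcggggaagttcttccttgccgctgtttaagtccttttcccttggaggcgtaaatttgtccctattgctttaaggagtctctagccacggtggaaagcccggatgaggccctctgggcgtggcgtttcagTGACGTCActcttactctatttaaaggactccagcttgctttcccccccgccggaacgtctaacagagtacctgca
Dusp1 (chr10:17184653-17184862, plus strand): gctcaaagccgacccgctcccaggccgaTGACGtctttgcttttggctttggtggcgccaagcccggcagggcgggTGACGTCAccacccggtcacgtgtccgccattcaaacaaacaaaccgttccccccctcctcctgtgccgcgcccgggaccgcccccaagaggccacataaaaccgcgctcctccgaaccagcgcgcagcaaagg
Egr2 (chr20:21054432-21054641, minus strand): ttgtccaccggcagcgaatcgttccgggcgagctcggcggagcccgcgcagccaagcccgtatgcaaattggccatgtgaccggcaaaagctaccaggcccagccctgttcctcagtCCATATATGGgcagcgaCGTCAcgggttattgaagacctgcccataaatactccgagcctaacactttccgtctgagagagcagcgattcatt
Nr4a1 (chr7:134259938-134260147, plus strand): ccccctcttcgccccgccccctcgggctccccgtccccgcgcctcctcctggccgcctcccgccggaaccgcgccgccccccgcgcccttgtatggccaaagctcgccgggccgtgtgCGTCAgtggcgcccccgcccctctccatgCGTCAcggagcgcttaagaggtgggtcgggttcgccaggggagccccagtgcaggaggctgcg

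Positions are counted from the start of the gene. The full CRE lay at -66 to -59 in Ier2 and at -124 to -117 in Dusp1. It was present in 2 of 8 members compared with 1.83% of 33469 promoter windows of the same length, 250 bases before to 50 after the start, searched on both strands. The shorter TGACG, which every full CRE contains, was present in 6 of 8 (Junb, Egr1, Egr2, Nr4a1, Ier2 and Dusp1) compared with 21.2%. The CArG box was present in Egr1 and Egr2 (from -83 to -74 in Egr2) compared with 1.64%. The EGR motif GCGNGGGCG was found in Nr4a1 only (4.98% of promoters). The letters TATAAA of the TATA box were found in Junb at -49 to -44 and in Fosb at -180 to -175 (14.2%). In Fosb they lay on the strand opposite to the gene. The AP-1 motif TGANTCA (7.33%) and the Nr4a motif AAGGTCA (4.61%) were found in none of the 8 windows. These are matches of letters and do not show that a factor was bound.

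The total count of a library lay between 20041010 and 36539941, with a median of 27379945. No library duplicated another. In 12 libraries, at least 6 of 18 genes of hypothalamic nuclei were below 1 CPM (counts scaled by library size and TMM). The sum of the 18 was at most 213 CPM in these, compared with at least 455 CPM in the other 53. The 18 include Pmch, Hcrt, Oxt and Trh, of which Pmch and Trh were not below 1 CPM in any library. Kiss1 and Agrp, also among the 18, had medians of only 0.88 and 0.95 CPM over all 65 libraries. The range over all 65 libraries was 1.42 to 6173 CPM for Pmch, and Hcrt, Sim1 and Fezf1 were at 0 in 2 libraries each and Otp in 5. These 12 libraries were sham replicates 2, 6 and 10, lean replicates 2 and 5, saline replicates 3 and 4, liraglutide replicates 3 and 4, BWM replicate 1, PYY3-36 replicate 2 and PYY3-36 + liraglutide replicate 8, and 0 RYGB libraries were among them. The summed level of 8 cortex markers ranged from 91.2 to 2035 CPM (median 354) in the 12 and from 44.4 to 1276 CPM (median 94.8) in the other 53, and that of 8 striatum markers from 268 to 4532 CPM (median 803) and from 129 to 2029 CPM (median 262). Results are therefore given with and without these 12 libraries, a choice made after seeing the data. Since each library is from tissue and not from single cells, fewer cells of a type and less RNA per cell cannot be told apart.

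The levels differed more between animals than those of most genes. After subtraction of the mean of each group in each batch, the SD of log2(CPM + 1) was 0.58 for Ier2, 0.95 for Egr2, 0.96 for Nr4a1 and 1.22 for Arc, compared with a median of 0.26 over all genes, which put the members between the 91.5th percentile (Ier2) and the 99.3th (Arc). This scale compresses the SD of genes with few counts. By the biological coefficient of variation of edgeR, the members lay between the 71.5th percentile (Ier2, 0.429) and the 93.8th (Arc, 0.936), compared with a median of 0.255 over all genes. Per length, Junb was highest with a mean of 32.6 CPM per kb (SD 21.8, n = 65), followed by Egr1 (27.4), Dusp1 (27.3), Fos (16.3), Arc (14.7), Ier2 (14.5), Nr4a1 (6.22), Npas4 (2.0), Fosb (1.89) and Egr2 (0.545). Within animals, the neighbours Egr1 and Dusp1 could not be put in order, as Egr1 was higher in 33 of 65 animals, and Npas4 was above Fosb in 38 of 65. Arc exceeded Ier2 in only 18 of 65 animals although its mean was higher, since the mean of Arc was drawn up by few animals. Junb exceeded Egr1 in 52 of 65, Dusp1 exceeded Fos in 59, and Fosb exceeded Egr2 in all 65 animals. The lowest and highest single levels were 8.42 and 425 CPM for Arc, both in RYGB-treated animals, 0.397 and 48.6 CPM for Egr2 and 7.33 and 330 CPM for Nr4a1. The smallest span was that of Ier2, from 10 to 85.4 CPM.

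**Figure D1:**
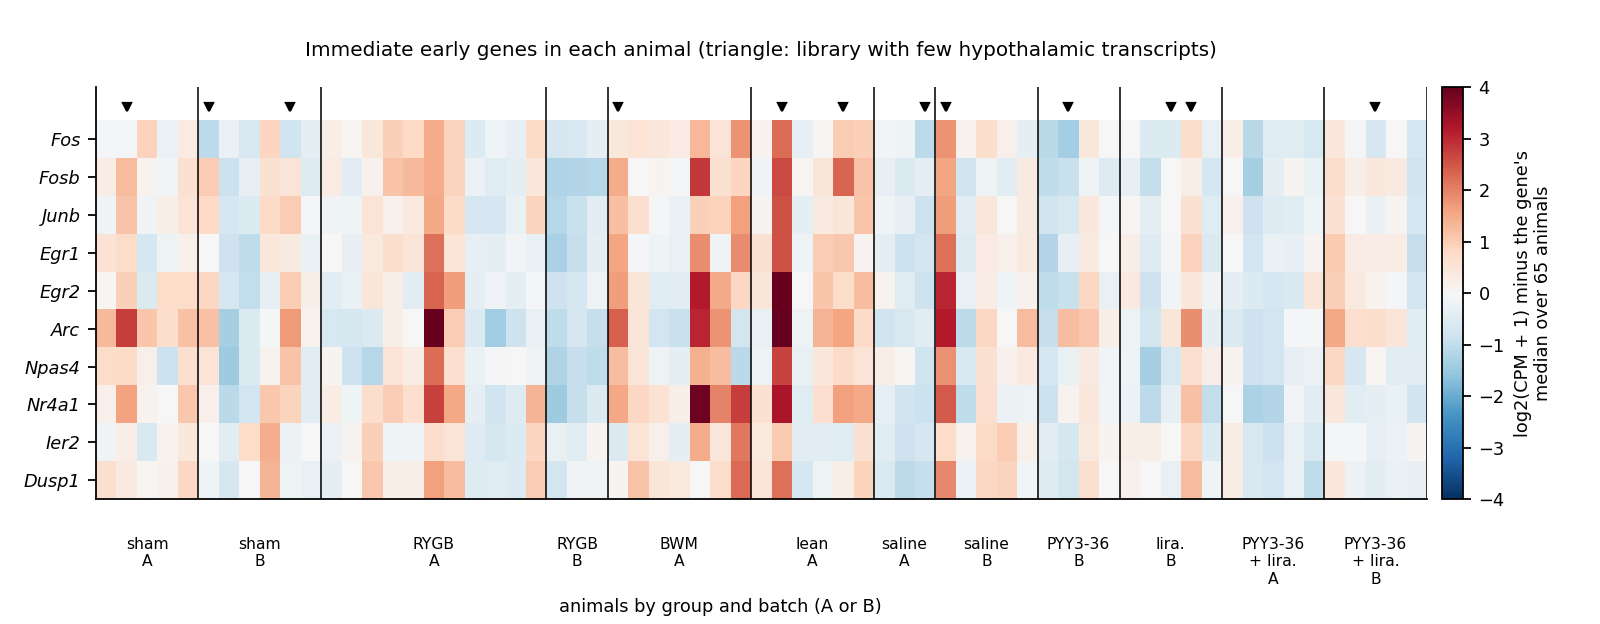
Level of each member (rows) in each of the 65 animals (columns, by group and batch), as log2(CPM + 1) minus the median of the gene over all animals, from blue (lower) to red (higher), with the end colour for values past 4 and triangles for the 12 libraries with few hypothalamic transcripts. Single columns, such as lean replicate 2, RYGB replicate 6 and saline replicate 4, are red over nearly all members.

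Whether food restriction left a trace in the immediate early genes was asked by comparing BWM with sham-treated animals. Fold changes of BWM animals were positive for all 10 members, but none passed the test. Nr4a1 was measured at a lowest, median and highest level of 25.6, 64.4 and 330 CPM in BWM animals. In the sham-treated animals of the same batch it was at 21.2, 23.6, 25, 46.3 and 66.8 CPM, and in those of batch B at 9.50, 20.1 and 45.8 CPM (lowest, median and highest of 6). All 7 BWM animals were above the lowest sham-treated animal of batch A, but the ranges overlapped. The log2 fold change of Nr4a1 was 1.70 (SE 0.55, 95% interval 0.62 to 2.78, adjusted p = 0.149 by edgeR's quasi-likelihood test with Benjamini-Hochberg adjustment over all genes). Ier2, with levels of 12.4, 26.1 and 85.4 CPM (lowest, median, highest) in BWM animals and of 12.1 to 25.8 CPM in the sham-treated animals of batch A, had a log2 fold change of 0.81 (SE 0.32, adjusted p = 0.270). The values were 1.5 (SE 0.70) for Egr2, 1.0 (SE 0.43) for Egr1 and 0.85 (SE 0.37) for Fos, and from 0.33 (Npas4) to 0.89 (Fosb) for the other 5 members. The median of the 10 was 0.83 compared with -0.00 over all genes.

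At an adjusted p under 0.05, 0 of 10 members and 0.320% of all genes were called in this comparison, and DESeq2 also called 0 members. Here and below, shares of all genes called or past a threshold are from edgeR, and DESeq2 was read for the members only. At an unadjusted p under 0.05, 5 members (Fos, Egr1, Egr2, Nr4a1 and Ier2) and 12.3% of all genes passed. Within batch A alone, where both groups were present, 9 of 10 fold changes were positive, 0 members were called (1.59% of all genes) and Nr4a1 and Ier2 passed the unadjusted threshold (17.5%). With the 12 libraries left out, all 10 were positive, from 0.38 to 1.96, 0 were called (0.391%) and 6 passed the unadjusted threshold (13.6%), with Nr4a1 at 1.96 (SE 0.55, adjusted p = 0.0921 by edgeR). Without the batch term in the model, Nr4a1 was called at 1.79 (adjusted p = 0.0208 by edgeR), together with 9.98% of all genes. The difference rested on BWM replicates 5 and 7. Their levels of Nr4a1 were 330 and 152 CPM, of Ier2 54.6 and 85.4 CPM, and of Egr1 117 and 119 CPM, while the other 5 BWM animals had 25.6 to 88.3 CPM of Nr4a1 and 12.4 to 28.2 CPM of Ier2. Without these 2 animals, a choice made after seeing the data, fold changes ran from 0.04 (Arc) to 0.72 (Egr2), and without the 12 libraries in addition from -0.11 (Egr1) to 0.70 (Nr4a1). Without BWM replicate 5 alone, Nr4a1 was at 1.04, Egr2 at 0.69 and Arc at -0.18, and without BWM replicate 7 alone, Ier2 was at 0.41 and Dusp1 at 0.28.

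Marker genes of tissue next to the hypothalamus also differed in this comparison. Of the pituitary genes, 5 of 7 tested were called higher in BWM than in sham-treated animals, but their sum was 76750 CPM in BWM replicate 5 alone, compared with a median of 12.7 CPM in the group and with 2.74 to 468 CPM in the sham-treated animals of batch A. Of 8 choroid plexus genes 2 were called higher and 5 passed the unadjusted threshold as higher. Of 9 meninges genes 0 were called, but 8 passed the unadjusted threshold as higher. The meninges sums were 89.8 to 3479 CPM in BWM and 66.1 to 124 CPM in sham-treated animals of batch A. Of 6 endothelium genes 1 was called higher, Kdr (log2 fold change 0.90, adjusted p = 0.0321 by edgeR), and 3 passed the unadjusted threshold as higher. Of all genes, 0.320% were called and 12.3% passed the unadjusted threshold. BWM replicate 7 had the highest meninges sum of its group and the highest endothelium sum of all 65 libraries (659 CPM, compared with a median of 284 CPM). Of 8 cortex genes 6 had negative fold changes, with a median of -0.98, and 3 passed the unadjusted threshold, 0 being called. The part of these tissues in the levels of the members was not tested.

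In lean animals, all 10 fold changes compared with sham-treated animals were positive as well, and none passed the test. Egr2 was at 1.82, 4.42 and 48.6 CPM (lowest, median and highest) in lean animals and at 0.909, 1.95, 3.68, 3.74 and 4.46 CPM in the sham-treated animals of batch A. Lean replicate 2 lay far above the other 5 lean animals, which reached 5.66 CPM. The log2 fold change of Egr2 was 2.21 (SE 0.72, 95% interval 0.80 to 3.63, adjusted p = 0.237 by edgeR). It was 1.19 (SE 0.51) for Fosb, 1.17 (SE 0.45) for Egr1, 1.15 (SE 0.57) for Nr4a1 and 0.92 (SE 0.38) for Fos, and from 0.18 (Ier2) to 0.95 (Arc) for the other members, with a median of 0.94 compared with -0.02 over all genes. By edgeR and by DESeq2, 0 members were called (0% of all genes), and 5 passed the unadjusted threshold (12.2%). Within batch A, 0 were called (0%) and Egr2 passed the unadjusted threshold (13.1%). Without the batch term, Egr2 was called at 2.14 (adjusted p = 0.0334 by edgeR), together with 10.7% of all genes. The positive fold changes rested on few animals. Without lean replicate 2, Egr2 was at 0.66, Junb at 0.06, Arc at -0.31 and Ier2 at -0.07. After removal of the 12 libraries, which include lean replicates 2 and 5, 6 of 10 fold changes were positive, from -0.14 (Dusp1) to 0.88 (Egr2), with 0 called (0%) and 0 past the unadjusted threshold (10.9%). The cortex sum ranged from 84.8 to 1174 CPM in lean animals, highest in replicate 2, and from 75.8 to 2035 CPM in the sham-treated animals of batch A. Its part in the result was not tested.

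Between RYGB-treated and sham-treated animals, whose comparison called more genes than any other between groups, the fold changes of the immediate early genes were small relative to their errors and none passed the test. Fos was at 14, 28.6 and 59.7 CPM (lowest, median and highest) in batch A and at 12.8, 13.3 and 15.6 CPM in the 3 animals of batch B. Sham-treated animals had 17.7, 19.5, 20.2, 26.7 and 40.5 CPM of Fos in batch A, and 9.66, 14.3 and 39.0 CPM (lowest, median and highest) in batch B. The groups overlapped in both batches. The log2 fold change of Fos was 0.33 (SE 0.31, 95% interval -0.27 to 0.93, adjusted p = 0.485 by edgeR), and those of the other members ran from -0.18 (Junb) to 0.29 (Egr1), with a median of 0.06 over the 10 compared with -0.02 over all genes. Of the 10 members 0 were called by edgeR and by DESeq2, compared with 13% of all genes by edgeR, and 0 passed the unadjusted threshold, compared with 30.0%. The intervals remained wide for the most variable members, -1.0 to 1.32 for Egr2 and -1.37 to 1.02 for Arc. Without the 12 libraries, fold changes ran from -0.08 to 0.41, with 0 called (5.36%) and 0 past the unadjusted threshold (24.6%).

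The result of Arc depended on 1 animal. In batch A it was at 8.42, 16.2 and 425 CPM (lowest, median and highest) in RYGB-treated animals and at 39.3, 52.8, 55.4, 59.7 and 168 CPM in sham-treated animals. RYGB replicate 6 had 425 CPM, whereas the next highest RYGB-treated animal had 49.6 CPM. The log2 fold change of Arc was -0.17 (SE 0.61) with all animals. Without RYGB replicate 6 it was -1.46 (SE 0.50, adjusted p = 0.0348 by edgeR), so that Arc was called lower, in a comparison that then called 16.6% of all genes. Without this animal and the 12 libraries, which include sham replicates 2, 6 and 10, it was -0.92 (SE 0.42, adjusted p = 0.153 by edgeR), and without the 12 libraries alone 0.33.

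The batches gave different pictures for RYGB. Within batch A, fold changes compared with sham-treated animals ran from -0.39 to 0.31, with 0 members called (2.43% of all genes) and 0 past the unadjusted threshold (22.7%). Within batch B, with 3 RYGB-treated and 6 sham-treated animals, all 10 were negative, from -0.34 (Fos) to -1.94 (Fosb), 1 member was called (11.8%) and 3 passed the unadjusted threshold (26.4%). The called member was Fosb, which was at 1.22, 1.27 and 1.35 CPM in RYGB-treated animals and at 1.86, 2.59, 3.05, 6.32, 6.81 and 9.44 CPM in sham-treated animals of batch B. The ranges did not overlap, which was also the case for 15.8% of all genes in this comparison. The log2 fold change of Fosb in batch B was -1.94 (SE 0.60, adjusted p = 0.0339 by edgeR), that of Junb -1.15 (SE 0.45, adjusted p = 0.0933) and that of Npas4 -1.35 (SE 0.59, adjusted p = 0.140). In batch A, Fosb was at 0.03 (SE 0.50). A test of the difference between the batches gave -1.98 (SE 0.84, adjusted p = 0.370 by edgeR) for Fosb. It called 0 members (0% of all genes), and Fosb was the only member past its unadjusted threshold (10.4%), so the batches were not shown to differ. With the 12 libraries left out the difference was -1.82 (SE 0.79) for Fosb. Sham replicates 6 and 10, which are among the 12, had 9.44 and 6.32 CPM of Fosb. The cortex sum of batch B was 49.6 to 69.8 CPM in RYGB-treated and 48.3 to 303 CPM in sham-treated animals, and its part was not tested.

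**Figure D2:**
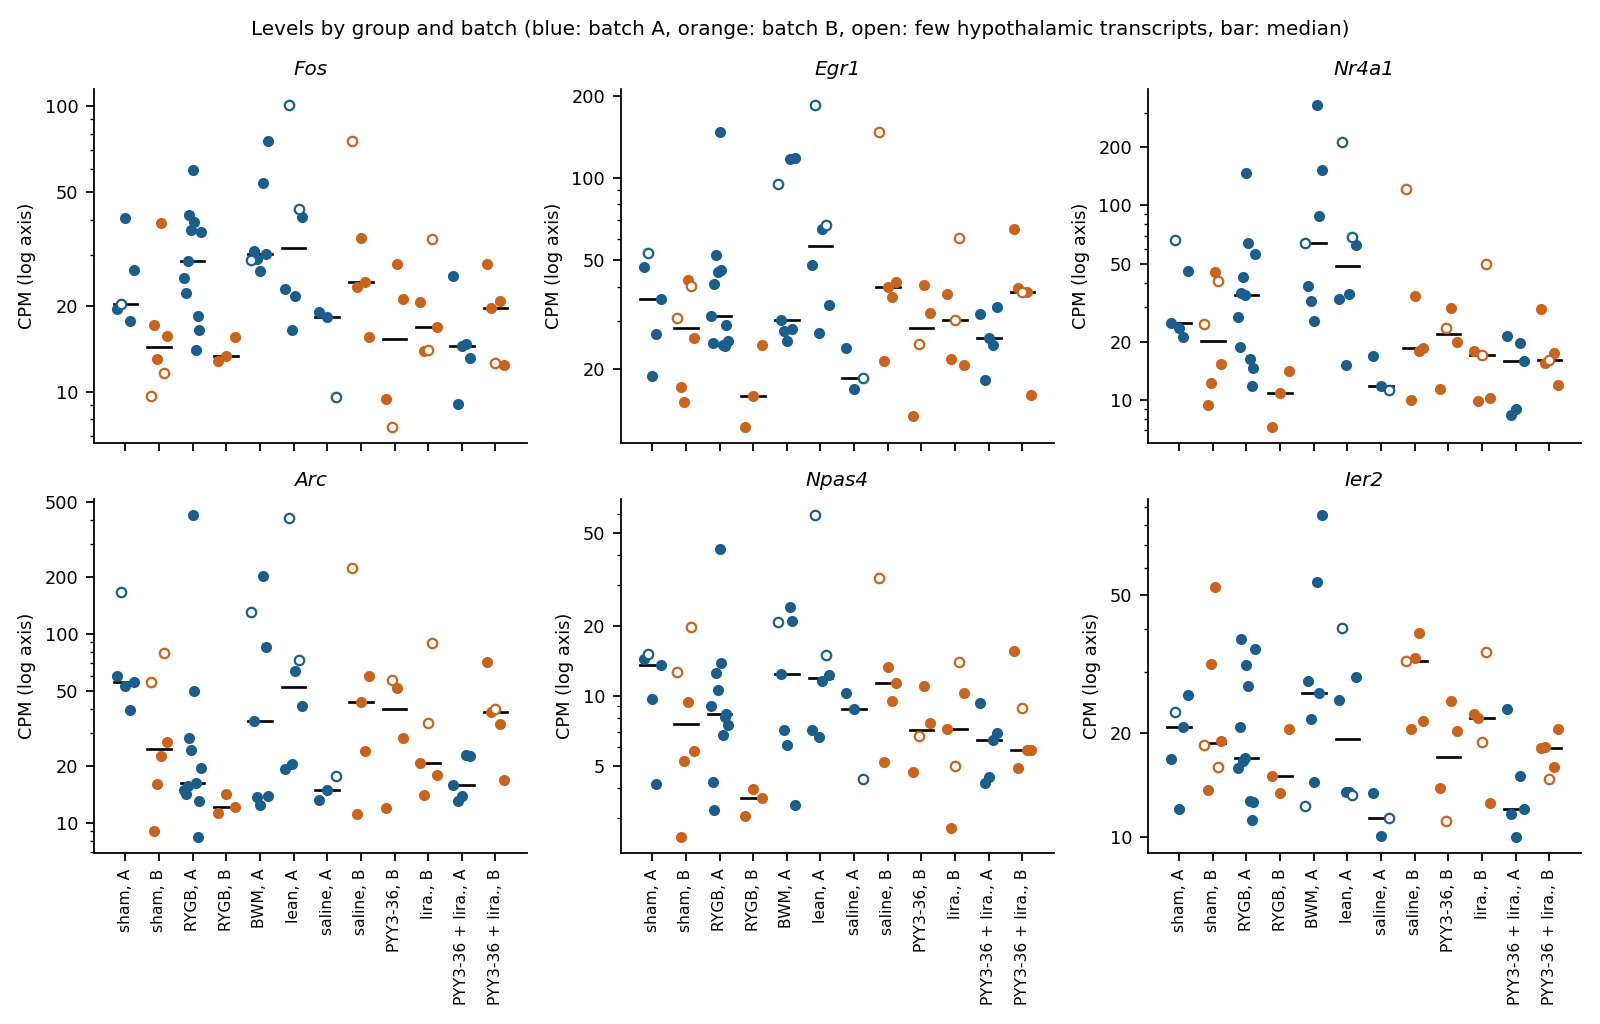
Levels (CPM, log axis) of 6 members by group and batch, 1 point per animal, blue for batch A and orange for batch B, open for the 12 libraries with few hypothalamic transcripts, with a bar at the median. BWM replicate 5 had 330 CPM of Nr4a1, RYGB replicate 6 had 425 CPM of Arc, and the 3 RYGB-treated animals of batch B had 7.33 to 14.2 CPM of Nr4a1.

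BWM animals were fed to match the body weight of RYGB-treated animals, but the study reports that they weighed more by the last week. In the direct comparison the fold changes of RYGB-treated animals were negative for all 10 members, but none passed the test. Nr4a1 was at 11.9, 34.6 and 147 CPM (lowest, median and highest) in RYGB-treated animals of batch A and at 7.33, 10.8 and 14.2 CPM in those of batch B, compared with 25.6, 64.4 and 330 CPM in BWM animals. The log2 fold change was -1.53 (SE 0.48, 95% interval -2.46 to -0.59, adjusted p = 0.200 by edgeR) for Nr4a1 and -0.81 (SE 0.28, adjusted p = 0.260) for Ier2. It was -1.34 (SE 0.61) for Egr2, -1.01 (SE 0.43) for Fosb and -0.66 (SE 0.32) for Junb, with a median of -0.68 over the 10 compared with -0.03 over all genes. Of the members 0 were called by edgeR and by DESeq2 (0.343% of all genes) and 5 passed the unadjusted threshold (12.6%). Within batch A, 0 were called (0.0597%) and Nr4a1 and Ier2 passed the unadjusted threshold (6.94%). After removal of the 12 libraries, 0 were called (0.555%) and 6 passed the unadjusted threshold (17.0%), with Nr4a1 at -1.60 (SE 0.44, adjusted p = 0.0772 by edgeR).

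Leaving out single animals moved this comparison in both directions. Without RYGB replicate 6, Nr4a1 was called at -1.90 (SE 0.46, adjusted p = 0.0467 by edgeR; 0.233% of all genes) and Arc was at -1.92 (SE 0.54, adjusted p = 0.132). Without this animal and the 12 libraries, Nr4a1 was called at -1.99 (SE 0.40, adjusted p = 0.00812 by edgeR), as were 0.592% of all genes, and all 10 members passed the unadjusted threshold (16.9%). Without BWM replicate 5, Nr4a1 was at -0.88 and Fosb at -0.32, and without BWM replicates 5 and 7 and the 12 libraries Nr4a1 was at -0.33 (SE 0.48) and Egr1 at 0.50 (SE 0.40). The comparison shares its BWM animals with the comparison of BWM and sham-treated animals, so their opposite signs are not independent of each other. Pituitary genes were again called in 5 of 7 cases, here lower in RYGB-treated animals, with sums of 1.93 to 472 CPM in batch A. All 8 striatum genes passed the unadjusted threshold as lower in RYGB-treated animals, with a median log2 fold change of -1.67, and 0 were called. Their sum was 152 to 511 CPM in RYGB-treated animals of batch A and 145 to 4532 CPM in BWM animals, with the highest value in BWM replicate 1, one of the 12 libraries. Of 6 endothelium genes, 3 passed the unadjusted threshold as lower, with sums of 191 to 505 and 217 to 659 CPM. Cortex genes went the other way, with 7 of 8 fold changes positive, a median of 1.31, 2 past the unadjusted threshold and sums of 44.4 to 1276 and 48.1 to 572 CPM. The part of these tissues in the fold changes of the members was not tested.

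**Figure D3:**
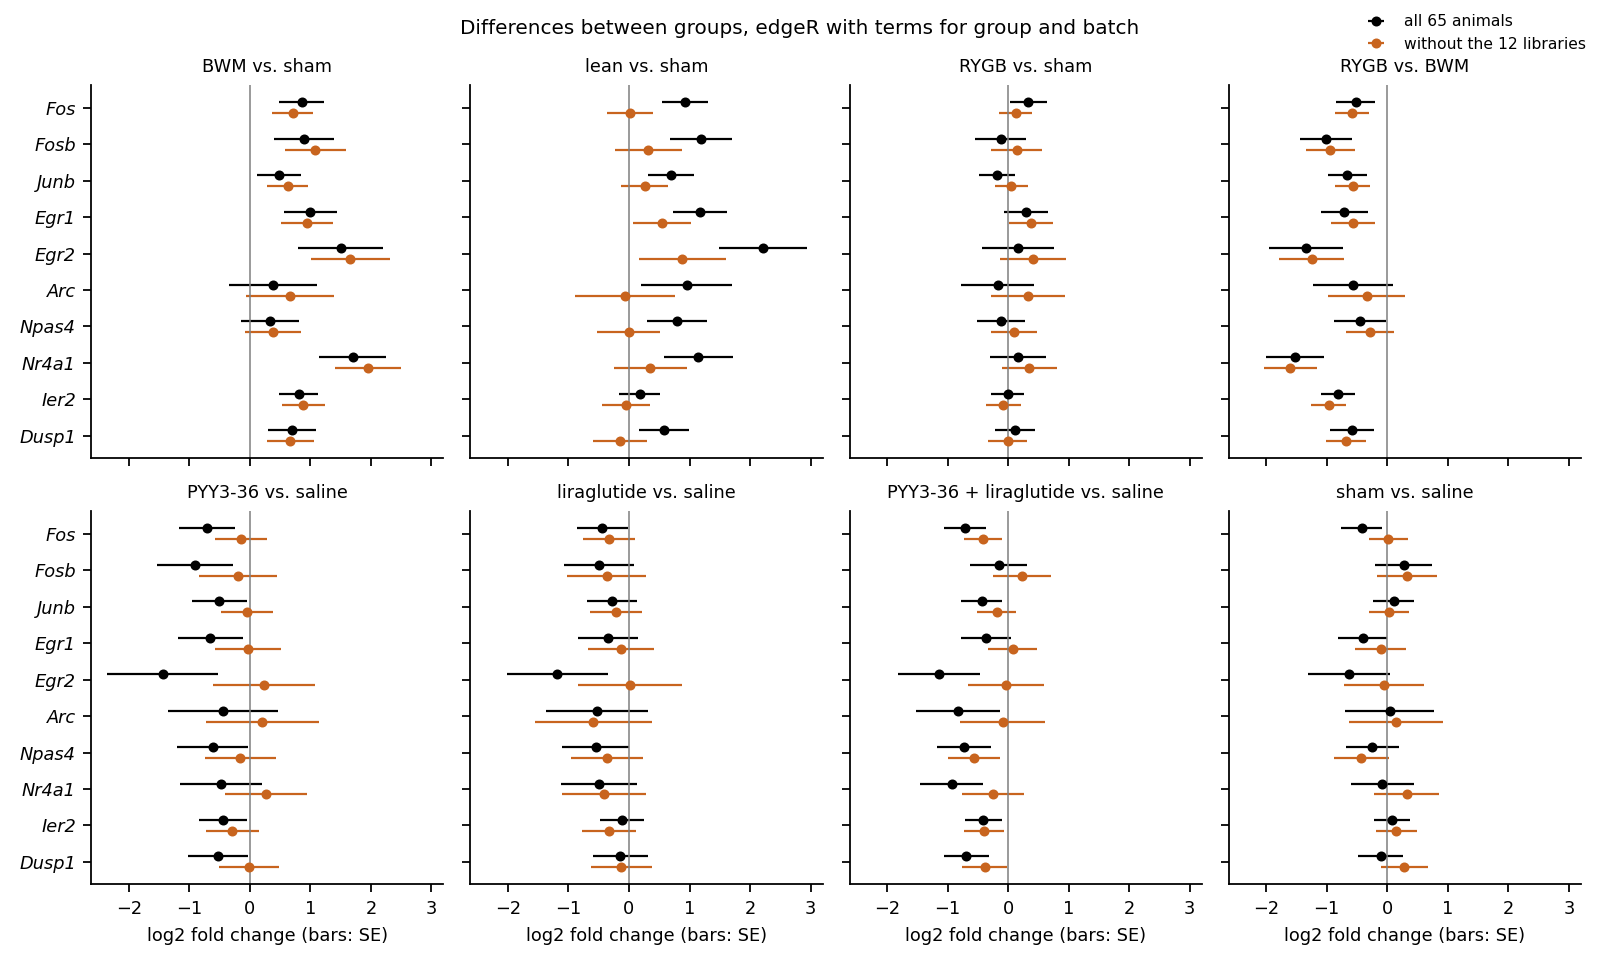
Log2 fold change of each member in the 8 comparisons between groups, from edgeR with terms for group and batch (bars show the SE), for all 65 animals in black and without the 12 libraries in orange. The orange points lie between -0.14 and 0.88 for lean and between 0.38 and 1.96 for BWM, both compared with sham-treated animals, and between -0.29 and 0.27 for PYY3-36 compared with saline.

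The effect of the gut hormones was asked by comparison with saline-treated animals. In PYY3-36-treated animals all 10 fold changes were negative, from -0.44 (Arc and Ier2) to -1.44 (Egr2), with a median of -0.57 compared with -0.01 over all genes. Egr2 was at 0.397, 0.522, 1.30 and 3.98 CPM in PYY3-36-treated animals and at 1.27, 1.51, 2.16, 2.46 and 22.3 CPM in the saline-treated animals of the same batch. Saline replicate 4 stood far above the rest, and the ranges of the other animals overlapped. By edgeR and by DESeq2 0 members were called (0% of all genes), and 0 passed the unadjusted threshold (7.54%). Within batch B, 0 were called (0%) and 6 (Fos, Fosb, Egr1, Egr2, Ier2 and Dusp1) passed the unadjusted threshold (15.8%). With the 12 libraries left out, fold changes ran from -0.29 to 0.27, 0 were called (0%) and 0 passed the unadjusted threshold (3.5%). Without saline replicate 4 alone, Egr2 was at 0.03, Egr1 at 0.01 and Arc at 0.58.

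In liraglutide-treated animals all 10 fold changes were negative too, from -0.11 (Ier2) to -1.18 (Egr2), with a median of -0.47 compared with -0.02 over all genes. Fos was at 13.8, 14, 16.9, 20.6 and 34.2 CPM in liraglutide-treated animals and at 15.5, 23.3, 24.1, 34.6 and 75.6 CPM in saline-treated animals of batch B, and the ranges overlapped. Of the members 0 were called by edgeR and by DESeq2 (0%) and 0 passed the unadjusted threshold (2.08%). Within batch B, 0 were called (0.00485%) and Egr2 passed the unadjusted threshold (5.08%). After removal of the 12 libraries, fold changes ran from -0.59 (Arc) to 0.02 (Egr2), with 0 called (0%) and 0 past the unadjusted threshold (2.61%), and without saline replicate 4 alone 8 of 10 were positive.

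For PYY3-36 + liraglutide, fold changes ran from -0.16 (Fosb) to -1.14 (Egr2), with a median of -0.70 compared with -0.02 over all genes. Fos was at 9.06, 13.1, 14.5, 14.6 and 25.3 CPM in the treated animals of batch A and at 9.58, 18.2 and 19.0 CPM in the saline-treated ones, so that the groups overlapped. In batch B it was at 12.4, 12.6, 19.6, 20.8 and 27.9 CPM in treated animals. Its log2 fold change was -0.72 (SE 0.35, 95% interval -1.40 to -0.04, adjusted p = 1.0 by edgeR). Fos was the only member past the unadjusted threshold (2.53% of all genes), and 0 were called by edgeR and by DESeq2 (0.00457%). Within batch A, 8 of 10 fold changes were positive, with 0 called (0%) and 0 past the unadjusted threshold (0.827%). Within batch B all 10 were negative, with 0 called (0%) and Fos, Ier2 and Dusp1 past the unadjusted threshold (9.55%). Ier2 was at 14.8, 15.9, 18.1, 18.3 and 20.6 CPM in the treated animals of batch B and at 20.6, 21.6, 32.3, 33.0 and 38.9 CPM in the saline-treated ones. The ranges met at 20.6 CPM without overlap, and did not overlap for 1.09% of all genes. The test of the difference between batches called 0 members (0%), and Dusp1 passed its unadjusted threshold (3.25%). Without the 12 libraries, fold changes ran from -0.56 (Npas4) to 0.23 (Fosb), with 0 called (0.00455%) and 0 past the unadjusted threshold (3.79%). The 3 hormone comparisons share their saline-treated animals, so their common sign is not 3 separate observations, and saline replicate 4 is among the 12 libraries.

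The control groups themselves were compared to see how far surgery and minipump controls differ. Over both batches, sham-treated and saline-treated animals gave fold changes from -0.63 (Egr2) to 0.27 (Fosb), with 0 members called by edgeR and by DESeq2 (0.0137%) and 0 past the unadjusted threshold (12.9%). Within batch A, all 10 were positive. Arc was at 39.3, 52.8, 55.4, 59.7 and 168 CPM in sham-treated and at 13.2, 14.9 and 17.8 CPM in saline-treated animals, with a log2 fold change of 2.29 (SE 1.19, adjusted p = 0.442 by edgeR). Dusp1 was at 42.5, 45, 51.2, 62.9 and 71.8 CPM in sham-treated and at 18.9, 20.7 and 26.5 CPM in saline-treated animals, with a log2 fold change of 1.31 (SE 0.58, adjusted p = 0.405). Sham-treated animals were above saline-treated animals without overlap for both genes and also for Fosb, Junb and Nr4a1, that is for 5 of 10 members compared with 8.26% of all genes. In batch A, 0 members were called (0%) and Dusp1 passed the unadjusted threshold (11.8%).

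Within batch B, all 10 fold changes of sham compared with saline were negative, from -0.18 (Fosb) to -1.41 (Egr2), with 0 called (0.00970%) and Fos and Egr1 past the unadjusted threshold (14%). In the test of the difference between batches, 6 members (Fos, Egr1, Egr2, Arc, Nr4a1 and Dusp1) passed the unadjusted threshold (11%). The difference was -3.34 (SE 1.36) for Arc and -2.03 (SE 0.70) for Dusp1 with adjusted p-values of 0.335 and 0.258 by edgeR, and 0 members were called (0.00457%). Saline replicate 4, in batch B, and saline replicate 3, in batch A, were among the 12 libraries. Without the 12, differences between batches ran from -0.57 (Junb) to -2.77 (Arc), and fold changes over both batches from -0.43 (Npas4) to 0.33 (Fosb), with 0 called (0.00910%) and 0 past the unadjusted threshold (7.03%).

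Between the batches themselves, 40.7% of all genes were called at an adjusted p under 0.05 and 47.7% passed the unadjusted threshold. Of the 10 members 0 were called by edgeR and by DESeq2, and 0 passed the unadjusted threshold. Their log2 fold changes of batch B compared with batch A ran from -0.20 (Nr4a1) to 0.35 (Ier2, SE 0.22, adjusted p = 0.209 by edgeR), with a median of -0.01, the same as over all genes.

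The members varied together between animals of the same group and batch. Over 65 animals, after subtraction of the group means within each batch, Pearson's r of log2(CPM + 1) was above 0 in all 45 pairs, with a median of 0.714 and a range from 0.149 to 0.890 (Spearman's rho from 0.165 to 0.887, median 0.662). A two-sided permutation test with 100000 shuffles within group and batch was adjusted by Benjamini-Hochberg over the 45 pairs. By this test, 43 pairs passed an adjusted p of 0.05 for r and 42 for rho. Pairs of other genes were not put through it, so the share passing outside the members is not known. The closest pairs were Junb and Nr4a1 (r = 0.890, rho = 0.887) and Arc and Npas4 (r = 0.860, rho = 0.776), both at a permutation p of 1e-05, the smallest the shuffles can give. Ier2 and Dusp1 (r = 0.784, rho = 0.790) formed another close pair. The pairs Arc and Ier2 (r = 0.228, rho = 0.165, adjusted permutation p = 0.153) and Npas4 and Ier2 (r = 0.149, rho = 0.181, adjusted permutation p = 0.337) did not pass. Without the 2 animals farthest from the median, r was 0.868 for Junb and Nr4a1, 0.811 for Arc and Npas4 and 0.734 for Ier2 and Dusp1.

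The pattern was present in both batches, with a median r of 0.704 over 37 animals in batch A and of 0.793 over 28 animals in batch B, and r above 0 in all 45 pairs of each. With the 12 libraries left out the median r was 0.682 (0.153 to 0.889, n = 53). Without the 5 animals whose members lay highest on average above the mean of their own group and batch, it was 0.566 (-0.135 to 0.900, n = 60), with 43 of 45 pairs above 0. Nr4a1 was closest to the other members, with a median r of 0.807, and Ier2 farthest, with 0.454.

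**Figure D4:**
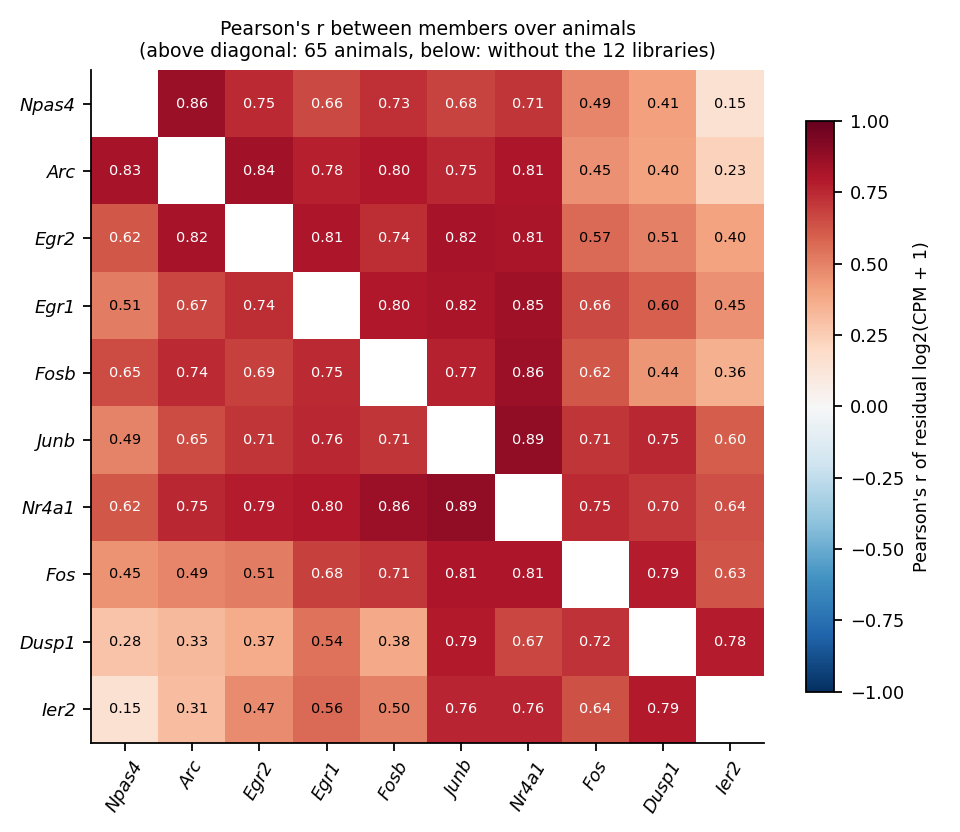
Pearson's r between members over animals, from log2(CPM + 1) after subtraction of the group means within each batch, with all 65 animals above the diagonal and without the 12 libraries below it. With all 65 animals, Arc, Npas4 and the Egr genes lie at one end with high values among themselves (0.66 to 0.86). Ier2 and Dusp1 lie at the other (0.78), and the lowest value is 0.15, between Npas4 and Ier2. Without the 12 libraries, the values among Arc, Npas4 and the Egr genes run from 0.51 to 0.83.

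The members differed in the tissue markers with which they varied. This is described over the same residuals of 65 animals, in which a member and a marker share the library and the dissection. With the summed cortex markers, r was 0.797 for Arc (rho = 0.754), 0.643 for Npas4, 0.602 for Egr2, 0.583 for Egr1 and 0.575 for Fosb, but 0.227 for Fos and -0.01 for Ier2. For Arc it was 0.768 in batch A, 0.857 in batch B and 0.719 without the 12 libraries, and for Npas4 0.613, 0.698 and 0.567. With the summed endothelium markers the order was the other way round, with r of 0.609 for Ier2 and 0.606 for Dusp1 and of -0.06 for Arc. These values were 0.581 for Ier2 and 0.656 for Dusp1 without the 12 libraries. With the 18 genes of hypothalamic nuclei, r was -0.56 for Arc and 0.201 for Ier2. Without the 12 libraries, which were chosen by these 18 genes, it was -0.177 for Arc and 0.260 for Ier2. Lists other than cortex and endothelium also set Arc apart from Ier2 over all 65 animals. With neuronal markers, r was 0.601 for Arc, 0.49 for Npas4 and 0.0253 for Ier2. Astrocyte markers gave -0.587 for Arc, -0.504 for Fosb and 0.205 for Ier2, and striatum markers 0.466 for Arc and -0.206 for Ier2. For microglia markers, the sign of Arc reversed from batch A (-0.604) to B (0.602), while Ier2 stayed positive (0.108 and 0.232). Over all 65 animals, the correlations with pituitary and choroid plexus markers lay between -0.174 and 0.267 for every member. They went past this range in parts of the data. With pituitary markers, Egr2 was at 0.343 without the 12 libraries. With choroid plexus markers, Dusp1 was at 0.387 in batch A and Fosb at -0.324 in batch B.

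**Figure D5:**
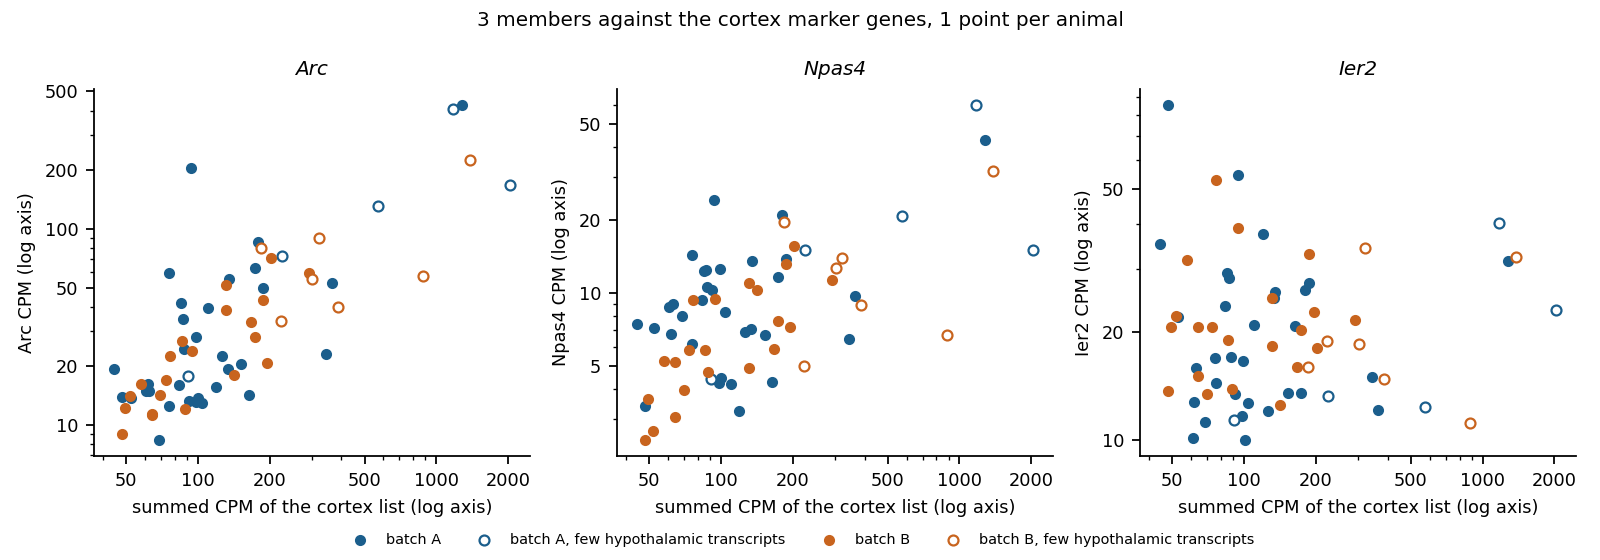
Levels of Arc, Npas4 and Ier2 (CPM, log axis) against the summed level of 8 cortex markers (CPM, log axis), 1 point per animal, blue for batch A and orange for batch B, open for the 12 libraries. Arc was higher where cortex markers were higher (r = 0.797 of the residuals), Npas4 less closely (0.643), and Ier2 showed no such slope (-0.01).

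Medians of 7 members were higher in the 12 libraries than in the other 53, which differ in their groups as well as in their hypothalamic transcripts, and those of Fos, Ier2 and Dusp1 were lower. The median of Arc was 76.2 CPM in the 12 and 20.5 CPM in the 53, that of Fosb 7.88 and 3.79 CPM, and that of Junb 75.2 and 42.7 CPM. The median of Nr4a1 was 45.4 and 19.7 CPM, and that of Npas4 14.5 and 7.46 CPM. Egr1 was at 46.6 and 28.8 CPM, and Egr2 at 3.88 and 1.57 CPM. For Ier2 the medians were 17.3 and 20.3 CPM, for Dusp1 39.3 and 39.9 CPM, and for Fos 17.1 and 21 CPM. Arc was above the mean of its own group and batch in 12 of the 12 libraries and Fosb in 11, compared with 4 for Fos and Ier2 and 3 for Dusp1.

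Few animals held the highest levels of most members. In lean replicate 2, all 10 members were the highest of the group, with 101 CPM of Fos, 268 CPM of Junb and 409 CPM of Arc, and its residual averaged 1.90 on the log2 scale. This library had the lowest sum of hypothalamic genes of all 65 (55.5 CPM) and the fourth highest cortex sum (1174 CPM). RYGB replicate 6 (mean residual 1.78) had the third highest cortex sum (1276 CPM), the highest choroid plexus sum (3640 CPM) and the highest sum of neuronal markers (7477 CPM). Saline replicate 4 (mean residual 1.54) had the second highest cortex sum (1385 CPM) and 69.9 CPM of hypothalamic genes. The highest cortex sum (2035 CPM) was that of sham replicate 2, which had a mean residual of only 0.56, with Fos and Dusp1 below 0. PYY3-36 replicate 2, with a cortex sum of 882.5 CPM, had a mean residual of -0.22 and the lowest Fos of all 65 animals (7.54 CPM). The residual of Arc was above 0 in both of these animals.

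BWM replicate 5 (mean residual 1.19) had a cortex sum of 94.0 CPM, below the median of 111 CPM, and differed from the others by its pituitary transcripts. Its levels were high for Nr4a1 (330 CPM), Arc (203 CPM) and Fosb (35.5 CPM), while Dusp1 was at 39.4 CPM, below the other 6 BWM animals. BWM replicate 7 differed from it, with 196 CPM of Dusp1 and 85.4 CPM of Ier2, the highest levels of all 65 animals for these genes, but 13.9 CPM of Arc and 3.41 CPM of Npas4. Liraglutide replicate 4 (mean residual 0.93) was the highest of its group for all 10 members and is one of the 12 libraries. The part of the tissue markers in these levels was not tested.

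Outside the 10 members, the genes whose residuals were most like their mean were searched over 17234 genes with a mean of at least 1 CPM in 65 animals. Per1, a clock gene that also responds to cyclic AMP and glucocorticoids, was closest with r = 0.777. It was followed by Csrnp1 (0.775), Sertad1 (0.754), Dusp14l1 (0.723), Btg2 (0.711), Vps37b (0.709), Usp2 (0.708), Klf10 (0.705), Wnt10a (0.701) and Gadd45b (0.698). Of these 10 genes, 5 (Per1, Csrnp1, Btg2, Klf10 and Gadd45b) are on a list of 46 further immediate early and activity-regulated genes. Without the 5 animals with the highest mean residual over the members, r was 0.644 for Per1, 0.673 for Sertad1 and 0.418 for Klf10.

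Of the 46 further immediate early and activity-regulated genes, 45 were tested. In BWM compared with sham-treated animals 1 was called higher, the bZIP factor Maff (log2 fold change 1.32, SE 0.32, adjusted p = 0.0452 by edgeR; 0.320% of all genes were called), and 34 of 45 fold changes were positive with a median of 0.27. In RYGB-treated compared with sham-treated animals 1 was called higher, Mcl1, which protects cells from apoptosis (0.29, adjusted p = 0.0361; 13% of all genes), with a median of 0.02. Lean animals had 0 called and a median of 0.23, RYGB-treated compared with BWM animals 0 called and a median of -0.36, and PYY3-36 + liraglutide compared with saline 0 called and a median of -0.28. At the unadjusted threshold 16 of 45 were higher in BWM than in sham-treated animals, where 12.3% of all genes passed in either direction, and 13 of 45 were lower in RYGB-treated than in BWM animals, where 12.6% passed. PYY3-36, liraglutide and the comparison of sham with saline called 0 of them. Between batches, 1 was called higher (Crem, 0.29, named after its values were seen) and 7 lower, among them Per1 (-0.85) and Cebpb (-1.12), compared with 40.7% of all genes called.

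The late activity-regulated genes, which follow the immediate early genes by hours, had 0 of 10 called in each of the 8 comparisons between groups. Of all genes, 13% were called in RYGB-treated compared with sham-treated animals and at most 0.343% in each of the other comparisons between groups. Of 28 upstream regulators of the response, 1 was called, the coactivator gene Crebbp, lower in RYGB-treated than in sham-treated animals (-0.18, adjusted p = 0.0440 by edgeR). Of 14 glucocorticoid-responsive genes, 1 was called, Pdk4, an inhibitor of pyruvate dehydrogenase, higher in RYGB-treated animals (1.06, adjusted p = 0.00570). Both counts lay below the 13% of all genes called in this comparison. Between batches, a comparison that called 40.7% of all genes, 8 of the 14 glucocorticoid-responsive genes were called lower in batch B, with Zbtb16 at -1.41. Of the 28 upstream regulators 9 were called, 3 higher and 6 lower. Of the 10 late genes 1 was called, Crh, higher in batch B (0.91, adjusted p = 0.00319 by edgeR).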

How the data were processed

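Hypothalami were dissected from frozen brains, and poly-A RNA was sequenced as stranded single-end libraries. Per the labels and the methods of the study, the authors trimmed reads with cutadapt (1.16 in the labels; the methods name later versions beside it), aligned them to Rnor_6.0 with STAR 2.7.2b and counted them per gene with featureCounts 1.6.4. The deposited estimated counts hold reads with several matches as fractions: 30.3% of nonzero values were not whole (tolerance 1e-06), and of the members Nr4a1 had such values in 13 of 65 libraries. Counts were rounded.

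The 10 members and all gene lists were chosen with earlier results of these data known. Genes were filtered with filterByExpr (minimum count 10, minimum total 15), which kept 21871, scaled by TMM and tested with edgeR 4.0.16 (robust quasi-likelihood, R 4.3.3) over all 65 libraries with terms for group and batch. An adjusted p under 0.05 (Benjamini-Hochberg over all genes) was called, and intervals cover 95%. DESeq2 1.42.0 was an alternative, read for the members only. The difference between batches was tested in a model with 12 group and batch means. Levels are CPM, and correlations used log2(CPM + 1). All 10 members are named, and of other lists the called genes with up to 5 of the smallest p-values, and the 10 genes most like the mean of the members. Animals were separate, so p-values measure the spread between animals within a group. The code was tested on simulated data. Same-numbered animals deviated together in every pair only for liraglutide and saline (correlations from 0.321 to 0.611 over 5 pairs), although the labels name no shared litter or day. In these pairs, saline replicates 1 to 3 were in batch A and the liraglutide-treated animals in batch B, so that those pairs came from different experimental periods. In the other 7 comparisons at least 1 pair was below 0.1. Promoters are from RefSeq (GRCr8).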

Additional observations from a re-analysis of the deposited data

Results flagged for a closer look

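Dixon's test at 95% was run on the CPM of 90 sets of values (each member in each group and batch of 4 to 10 animals). In 26 sets (28.9%), 1 animal was far from the others. The rate of about 1 in 20 by chance holds for normally distributed values, whereas CPM of the members were skewed towards high values. The 26 can therefore not be set against that rate, and no share over all genes is given. All 26 were the highest of their set. Lean replicate 2 gave 8 of them, with 101.2 CPM of Fos, 267.7 of Junb, 185.8 of Egr1, 48.61 of Egr2, 409.3 of Arc, 59.61 of Npas4, 212.3 of Nr4a1 and 188.4 CPM of Dusp1. Saline replicate 4 gave 6, with 14.48 CPM of Fosb, 146.1 of Junb, 147.0 of Egr1, 22.3 of Egr2, 222.6 of Arc and 121.8 CPM of Nr4a1. BWM replicate 5 gave 3, with 35.47 CPM of Fosb, 24.19 of Egr2 and 329.5 of Nr4a1, and BWM replicate 7 gave 1, with 196.2 CPM of Dusp1. Liraglutide replicate 4 gave 3, with 89.15 CPM of Arc, 49.94 of Nr4a1 and 98.2 of Dusp1. The others were sham replicate 9 with 39.02 CPM of Fos and 103.8 CPM of Dusp1, sham replicate 2 with 167.5 CPM of Arc, and 2 animals on PYY3-36 + liraglutide, replicate 5 with 2.924 CPM of Egr2 in batch A and replicate 6 with 55.07 CPM of Dusp1 in batch B. The 11 RYGB-treated animals of batch A were too many and the 3 of batch B too few for this test, so that the 425 CPM of Arc in RYGB replicate 6 was not tested. The values of 1 animal are not independent, since the members varied together.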

How the results depend on the processing

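The number of members called was 0 of 10 in the 8 comparisons between groups and in the comparison of batches, and it became 1 in few settings. For RYGB compared with sham it was 1 (Fosb) within batch B and between 0 and 1 when 1 animal was left out, with Arc called without RYGB replicate 6. It was 1 without the batch term for BWM compared with sham (Nr4a1) and for lean compared with sham (Egr2). For RYGB compared with BWM it was between 0 and 1 when 1 animal was left out, with Nr4a1 called without RYGB replicate 6, and 1 (Nr4a1) when the 12 libraries with few hypothalamic transcripts were left out as well, a setting chosen after seeing the data. The cause was not tested. With the size factors of DESeq2, without the filter, with only the 2 groups compared and with DESeq2 itself it remained 0. With the replicate number as a block, 0 members were called in all 8 comparisons. The fold changes of liraglutide then ran from -1.31 to 0.00.

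Of the 90 fold changes of members, 54 changed sign in at least 1 setting, among them all 10 for RYGB compared with sham and for sham compared with saline. The lowest mean level was 3.85 CPM (Egr2) at a median total count of 27379945, while the SD between animals reached 1.22 on the log2 scale (Arc), which sets the width of the intervals.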
